A study of Mus musculus with 6 samples.

Results

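The ADAM, ADAMTS and matrix metalloprotease (MMP) genes and their TIMP inhibitors were examined in mouse blood stem and progenitor cells with and without an active form of Notch1. The 62 genes were chosen by symbol: every measured gene named Adam, Adamts, Mmp or Timp with a number, plus Adamdec1, and without Adam10, Adam17, Mmp8 and Mmp9. They are 62 of the 18193 genes measured: 27 of the ADAM family, 15 ADAMTS, 16 MMP and 4 TIMP. Each gene was represented by its brightest probe set over the 6 arrays, a probe set being the group of short probes that the array holds for one transcript. Adamdec1 was chosen by name with its difference between the groups already known, so its values are given as a description with no test.

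The cells were LSK cells, the bone marrow fraction that lacks lineage markers and carries cKit and Sca1, in which the stem cells and earliest progenitors of blood are found. The WT group was 3 arrays from mice of genotype Mx1-cre+, and the N1IC group was 3 arrays from Mx1-cre+ mice that also carry the allele lox-stop-lox N1-IC, in which Cre removes a stop cassette and switches on N1-IC, the intracellular, constitutively active part of Notch1. All 6 mice thus carried Cre under the Mx1 promoter, which interferon induces in many cell types and not in blood cells alone. Per the labels, mice of 21 days received 3 injections of polyIC, an inducer of interferon, dosed by body weight at 20 mcg per g. The sort followed 2 weeks after the final dose, when the mice were 5 weeks old. The treatment text names mice with a floxed Ncstn gene, while titles, sources and genotypes name N1-IC or WT, and the groups here follow the latter. WT replicates 1 and 3 were male, and WT replicate 2 and the 3 N1IC mice were female, so sex and genotype could be separated only through WT replicate 2. The source labels name a mouse for each array but do not identify it further, so p-values measure the spread between these 6 samples.

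ADAM proteins are membrane-anchored enzymes with a disintegrin domain that release the outer parts of receptors, ligands and adhesion molecules, and several of them have lost the catalytic site or work mainly in sperm. ADAMTS proteins are secreted relatives that cut proteoglycans, procollagens or von Willebrand factor, and MMPs cut collagens, laminins and other matrix and cell-surface proteins, either as secreted enzymes or on the membrane. TIMPs are small secreted inhibitors that block the catalytic site of MMPs and of some ADAM and ADAMTS enzymes. In bone marrow these enzymes are known for shedding cytokine receptors and ligands and for the release of progenitors from the niche.

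The arrays measured amplified RNA, and the median deposited intensity per array lay between 89.0 and 92.4, with 6 arrays limiting the precision of every value. Kit, the receptor of the sort, lay between 11.45 and 11.94 on the log2 scale on all 6 arrays and did not pass the test. Of 9 measured genes of stem cells and of the LSK gate, 7 were lower in N1IC. Of 14 T-lineage genes 11 were higher, their summed intensity running from 3410 to 6610 in WT and from 37100 to 43900 in N1IC. Of 10 B-lineage genes 7 were lower, of 9 megakaryocyte genes 6, and of 11 endothelial genes 5. In the same fit 3.47% of all genes were higher and 8.31% lower. These lists moved together with the genotype, and their part in the results for the proteases was not tested.

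Most members did not pass the test, and of those that did more were lower than higher with active Notch1, as among all genes. Of the 62 members 55 lay at or below the median level of all genes. The median level was 4.74 over the members and 8.08 over all genes, and differences of dim genes are compressed. By limma with Benjamini-Hochberg adjustment over all genes, at an adjusted p below 0.05, 2 of the 62 members (3.23%) were higher in N1IC and 7 (11.3%) lower. Over all 18193 genes tested, 3.47% were higher and 8.31% lower. The higher genes were Timp2 and Adamdec1. Adamdec1 is in this count because it passed the same threshold, but it was put in the list with its rise known. The share of higher members is thus no test result. The lower genes were Adam22, Mmp2, Timp3, Adam15, Mmp19, Adamts6 and Mmp24. All but Mmp24 differed by at least 2-fold. The values of the 3 WT and the 3 N1IC arrays did not overlap for 18 members (29.0%), 7 of them above and 11 below WT, against 32.8% of all genes. The median log2 difference, N1IC minus WT, was 0.04 over the members and -0.01 over all genes. Centring each array on its median gene moved the median over all genes to 0.31, and the split became 12 higher and 5 lower among the members and 29.5% higher and 5.56% lower among all genes. Repeated quantile normalisation gave 2 higher and 7 lower members, with 948 genes higher and 1093 lower in all. Because RNA was taken from a whole sorted fraction, fewer cells of a type and less RNA per cell cannot be told apart in any of these values.

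**Figure D1:**
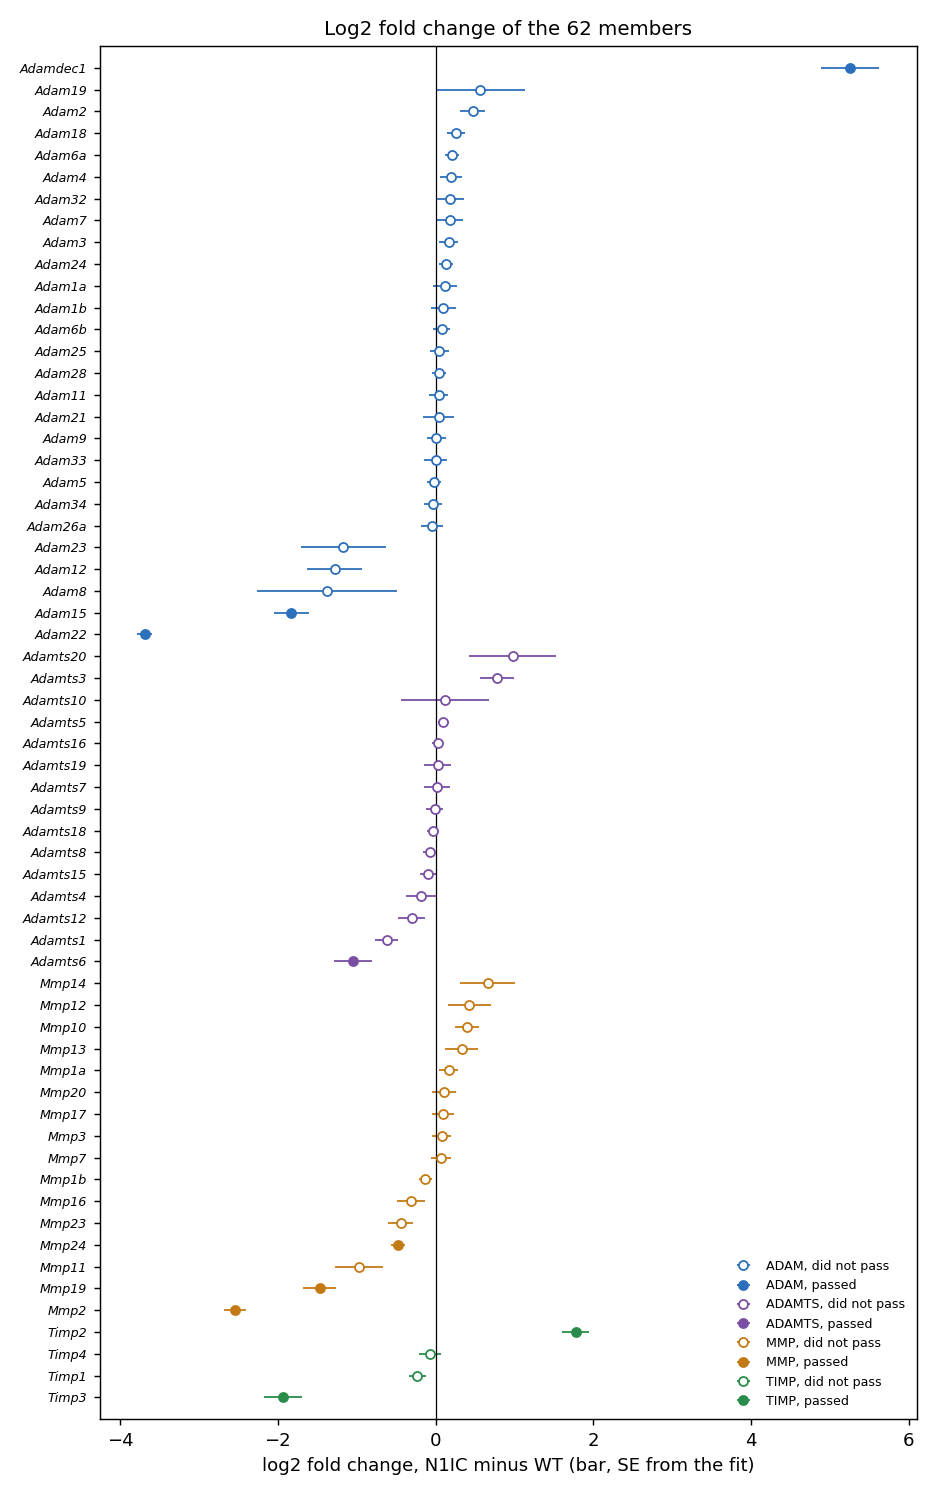
Difference between N1IC and WT (log2, horizontal axis) for each of the 62 members, grouped by family, with the standard error from the fit as a bar. Filled points passed the adjusted threshold over all genes, and Adamdec1 is drawn for its value only. Most points lie close to 0, and the range runs from -3.69 for Adam22 to 5.26 for Adamdec1.

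Of the 27 ADAM genes 2 (7.41%) were lower in N1IC, and none was higher apart from Adamdec1, which was chosen for the list with its rise known. Over all genes 8.31% were lower and 3.47% higher. Adamdec1 encodes a secreted ADAM-like protein without the usual transmembrane part, known from dendritic cells and macrophages. Its log2 intensity was 3.76, 4.18 and 3.91 in WT replicates 1, 2 and 3, and 8.35, 9.76 and 9.52 in N1IC replicates 1, 2 and 3. Every N1IC array was far above every WT array. The group means were 3.95 ± 0.21 in WT and 9.21 ± 0.76 in N1IC (SD, n = 3 each), a difference of 5.26 ± 0.37 (SE, log2). The WT values are low intensities on a scale with no true zero, so no fold is given. The gene had 1 probe set. Beside it, of 11 macrophage genes 2 were higher, C1qb and C1qc, with sums of 2390 to 6050 in WT and 2630 to 5840 in N1IC. Of 11 dendritic cell genes none was higher and 3 were lower, with sums of 20600 to 51000 in WT and 11900 to 17000 in N1IC.

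Adamdec1 lies on chromosome 14 between Adam7 and Adam28, its immediate protein-coding neighbours in the RefSeq annotation (GRCm38.p6). Adam28, a membrane ADAM of lymphocytes, had log2 values of 5.71, 5.58 and 5.46 in WT and 5.58, 5.62 and 5.69 in N1IC. Adam7, an epididymal gene, had 4.21, 3.92 and 3.99 in WT and 3.90, 4.29 and 4.46 in N1IC. The groups overlapped for both neighbours, with differences of 0.04 and 0.18 that did not pass the test.

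Adam22, on chromosome 5, encodes a catalytically inactive ADAM, known as a receptor for LGI proteins at synapses. Its log2 intensity was 9.15, 9.08 and 9.37 in WT and 5.53, 5.45 and 5.53 in N1IC. The arrays of each group lay close together, and the groups were far apart. Adam22 fell by 3.69 ± 0.10 on the log2 scale (SE), a 12.9-fold difference (limma, Benjamini-Hochberg adjusted p = 8.80e-05). A dimmer Adam22 probe set read 4.33, 3.78 and 3.84 in WT and 3.99, 3.92 and 4.04 in N1IC, a difference of 0.00. The fall was therefore seen with 1 of the 2 probe sets for the gene.

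A match to the binding core of RBPJ, the DNA-binding partner of active Notch1, was looked for in the 250 bases before each listed gene start, because the groups differ in Notch1. The core was searched as TGGGAA on both strands. Of the members, 34 were in the RefSeq promoter table (GRCm38.p6), with 39 windows, and 5 windows (12.8%) held the core. Over all 32851 windows of that length the share was 21.6%. Among the 5 called members in the table, Adam22 alone had a match, and so few genes say little. The other windows with the core were those of Adam21, Adam6a, Mmp7 and Timp1, which were not called. The match begins 118 bases before a listed start inside the gene's span. It is printed with 12 bases on each side, a stretch of 30 bases at chr5:8368261-8368290, minus strand. The stretch runs 5′ to 3′ with the reverse-strand form of the core in capitals.

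Adam22: agggaactacatTTCCCAgctactctggtg

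A match of letters is a description and not a measured binding site.

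Adam15, on chromosome 3, encodes a membrane protease with an integrin-binding motif, expressed on endothelium and blood cells. Its log2 intensity was 9.64, 9.69 and 9.91 in WT and 7.56, 7.82 and 8.37 in N1IC. All N1IC arrays were below all WT arrays. Adam15 fell by 1.83 ± 0.22 (SE, log2), a 3.56-fold difference (limma, Benjamini-Hochberg adjusted p = 0.00558). Of its 4 probe sets 3 were lower, by 1.83, 1.56 and 1.09 in size, and 1 did not pass, at -0.51. The brightest is of a type whose probes can also bind other transcripts. The call was lost in the fits that took account of sex, by a covariate or by using the female mice, where the adjusted p reached 0.0917. The sum over 11 endothelial markers was 5240 to 6870 in WT and 2530 to 2990 in N1IC beside this fall. The list was mixed, with 5 of the 11 lower. Pecam1, Plvap, Kdr and Esam did not fall, at 0.48, 0.46, 0.17 and 0.08, and did not pass. Cdh5 and Cldn5, at -0.91 and -0.48, did not pass either. The part of these markers in the fall of Adam15 was not tested.

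Adam9, a widely expressed sheddase, did not differ between the groups beyond their spread. It measured 10.45, 10.31 and 10.25 in WT and 10.12, 10.47 and 10.45 in N1IC, a difference of 0.01 ± 0.12 (SE, log2). The main sheddases outside the chosen list showed little difference too, at -0.13 for Adam10 (adjusted p 0.496) and 0.00 for Adam17 (adjusted p 0.997).

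The 16 ADAM genes known mainly from testis and epididymis gave no call. Their mean levels ran from 2.73 to 5.80 and their differences from -0.05 to 0.47. Adam2, a subunit of the sperm surface protein fertilin, had the largest difference of these, with 3.89, 4.06 and 4.05 in WT and 4.46, 4.76 and 4.19 in N1IC and an adjusted p of 0.12 (limma, Benjamini-Hochberg). Adam4 had group means of 5.71 ± 0.25 in WT and 5.90 ± 0.10 in N1IC (SD, n = 3 each). A run of neighbouring ADAM genes on chromosome 8, from Adam18 to Adam9, had 5 measured members, none of which was called.

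Of the 4 TIMP genes 1 rose and 1 fell, where 3.47% of all genes were higher and 8.31% lower. A share of 4 genes says little. Timp2, on chromosome 11, which inhibits MMPs and also holds pro-MMP2 on MMP14 for its activation, was the one that rose, and Timp3, on chromosome 10, the matrix-bound inhibitor of MMPs, of ADAM17 and of ADAMTS aggrecanases, the one that fell. Timp2 measured 9.97, 9.90 and 9.73 in WT and 11.46, 12.01 and 11.47 in N1IC. The N1IC arrays lay above all WT arrays by more than a log2 unit. The difference was 1.78 ± 0.17 (SE, log2), or 3.43-fold (limma, Benjamini-Hochberg adjusted p = 0.00319). All 6 Timp2 probe sets rose, by 1.78 to 2.63.

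Timp3 measured 7.85, 7.86 and 8.36 in WT and 5.96, 5.78 and 6.55 in N1IC. Again no array of one group reached the range of the other. Timp3 fell by 1.93 ± 0.24 (SE, log2), a 3.80-fold difference (limma, Benjamini-Hochberg adjusted p = 0.00687). Of its 4 probe sets 3 were lower, the largest difference being -2.51, and the dimmest, at -0.39, did not pass. The adjusted p of Timp2 was 0.0602 when only the female mice were used. That of Timp3 was above 0.05 there and with sex as a covariate, reaching 0.0892.

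The promoters of both genes were in the RefSeq table, and they are shown because these inhibitors carried opposite changes. Each is the 250 bases before the start, 5′ to 3′ on the gene's strand, with no base in capitals because neither holds the RBPJ core. Timp2 is at chr11:118355412-118355661 (minus strand) and Timp3 at chr10:86300162-86300411 (plus strand).

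Timp2: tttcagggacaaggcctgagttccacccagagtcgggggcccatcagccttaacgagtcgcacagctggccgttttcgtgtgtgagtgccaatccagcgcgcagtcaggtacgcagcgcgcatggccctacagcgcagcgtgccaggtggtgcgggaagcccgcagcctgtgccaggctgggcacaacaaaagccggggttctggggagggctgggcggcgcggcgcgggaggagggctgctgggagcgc

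Timp3: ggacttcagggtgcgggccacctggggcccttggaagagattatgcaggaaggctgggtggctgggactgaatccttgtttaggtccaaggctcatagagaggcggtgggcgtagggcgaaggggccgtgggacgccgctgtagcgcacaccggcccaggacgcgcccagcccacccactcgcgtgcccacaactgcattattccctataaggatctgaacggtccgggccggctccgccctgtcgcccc

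Both windows are rich in G and C, with 68.0% and 21 CpG for Timp2 and 65.6% and 18 CpG for Timp3, where the median of all windows was 52.4% and 6 CpG. The absence of the core says only that those letters are not in these windows.

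The other TIMP genes did not pass the test. Timp1, on the X chromosome, measured 4.77, 4.82 and 4.68 in WT and 4.32, 4.60 and 4.65 in N1IC, a difference of -0.23 with an adjusted p of 0.252 (limma, Benjamini-Hochberg). The groups did not overlap, though only narrowly. Timp4 measured 4.80, 4.66 and 4.93 in WT and 4.50, 4.98 and 4.71 in N1IC, a difference of -0.07. Reck, a membrane-anchored inhibitor of MMPs that is no TIMP, fell by 1.07 (limma, Benjamini-Hochberg adjusted p = 0.0118). It read 8.24, 7.93 and 8.22 in WT and 7.08, 6.78 and 7.31 in N1IC.

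**Figure D2:**
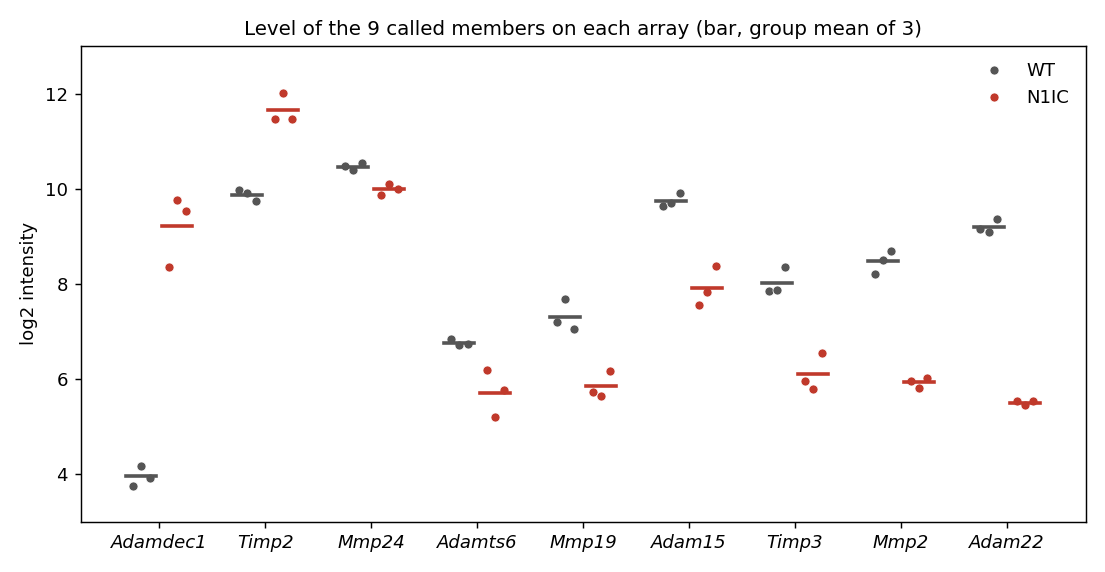
Log2 intensity (vertical axis) of the 9 called members on each of the 3 WT (grey) and 3 N1IC (red) arrays, with the group mean as a bar. Adamdec1 and Timp2 were higher in N1IC and the other members lower, with no overlap between the groups for any of the 9. They were picked on these same arrays, so the separation adds no support. Over all genes the groups did not overlap for 32.8%.

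Of the 16 MMP genes 3 (18.8%) were lower and none higher, beside 8.31% and 3.47% of all genes. Mmp2 on chromosome 8, gelatinase A, which cuts denatured collagen and collagen IV, measured 8.21, 8.51 and 8.69 in WT and 5.95, 5.81 and 6.03 in N1IC. Each N1IC array was well below each WT array. Mmp2 fell by 2.54 ± 0.14 (SE, log2), a 5.82-fold difference (limma, Benjamini-Hochberg adjusted p = 0.000627). Its second probe set had a difference of -2.58. The call held in each of 18 other settings of the analysis, where the difference ran from -2.67 to -2.22. Mmp14, the membrane enzyme that activates pro-MMP2, did not pass the test. It measured 6.81, 7.60 and 7.23 in WT and 8.34, 8.12 and 7.18 in N1IC, a difference of 0.66 ± 0.35 (SE, log2) with an adjusted p of 0.296. N1IC replicates 1 and 2 were above all WT arrays and N1IC replicate 3 was within their range. A dimmer Mmp14 probe set measured 6.11, 6.34 and 5.92 in WT and 6.86, 7.57 and 6.74 in N1IC, with no overlap. It differed by 0.93 and did not pass the test (limma, Benjamini-Hochberg adjusted p = 0.0687 over all probe sets). The dimmest Mmp14 probe set, at 0.46, did not pass either. Thus of the trio that acts in MMP2 activation, Mmp2 was lower, Timp2 higher and Mmp14 not called.

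Mmp19 on chromosome 10, a secreted protease of basement membrane proteins, measured 7.19, 7.68 and 7.06 in WT and 5.72, 5.64 and 6.17 in N1IC. The groups were separate. Mmp19 fell by 1.47 ± 0.21 (SE, log2), a 2.77-fold difference (limma, Benjamini-Hochberg adjusted p = 0.0106). Its dimmer probe set differed by 0.01 and was not called. Mmp24 on chromosome 2, a membrane-type MMP known from neurons, measured 10.47, 10.39 and 10.53 in WT and 9.86, 10.09 and 10.00 in N1IC. The difference was small beside the others, -0.48 ± 0.09 (SE, log2) or 1.40-fold, and its adjusted p was 0.0239. The other Mmp24 probe sets, at 0.27 and -0.18, did not pass. Leaving out any one array except N1IC replicate 2 lost the call of Mmp24, with adjusted p between 0.0414 and 0.0795 over the 6 fits.

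The other MMP genes gave no call. Mmp11, stromelysin-3, measured 6.98, 7.62 and 8.06 in WT and 6.93, 6.25 and 6.59 in N1IC, a difference of -0.97 with an adjusted p of 0.109 (limma, Benjamini-Hochberg). Mmp13, a collagenase, lay between 2.90 and 3.77 on all arrays. The cluster of 10 MMP genes on chromosome 9, from Mmp13 to Mmp7, had 8 measured members, with mean levels of 3.16 to 4.86 and differences from -0.13 to 0.43, and none was called. Mmp8 and Mmp9, enzymes of neutrophil granules outside the chosen list, varied widely among the WT arrays. Mmp8 measured 6.53, 10.27 and 10.08 in WT and 6.04, 5.85 and 7.04 in N1IC (adjusted p 0.171). Mmp9 measured 7.11, 10.81 and 10.77 in WT and 6.90, 7.11 and 8.60 in N1IC (adjusted p 0.308).

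Among the 15 ADAMTS genes 1 (6.67%) was lower and none higher, beside 8.31% and 3.47% of all genes. Adamts6 on chromosome 13, a relative of the fibrillin-associated Adamts10, measured 6.83, 6.71 and 6.74 in WT and 6.18, 5.19 and 5.76 in N1IC. The WT arrays were close together and the N1IC arrays spread widely below them. Adamts6 fell by 1.05 ± 0.24 (SE, log2), a 2.07-fold difference, and at an adjusted p of 0.0455 (limma, Benjamini-Hochberg) it was the member just inside the threshold. The call was lost without WT replicate 1, WT replicate 2, WT replicate 3 or N1IC replicate 3, with an adjusted p of up to 0.122. A dimmer probe set differed by -0.04.

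Just outside the threshold were Adamts1, a cutter of aggrecan and versican, and Adam12, an ADAM of muscle and mesenchyme. Adamts1 measured 4.33, 4.81 and 4.85 in WT and 4.05, 4.10 and 3.97 in N1IC, with an adjusted p of 0.0559. Adam12 measured 4.59, 6.02 and 5.33 in WT and 4.05, 3.85 and 4.20 in N1IC, with an adjusted p of 0.0734. For both, each N1IC array was below each WT array. Adamts3, a procollagen N-propeptidase that also processes VEGF-C, pointed the other way. It measured 8.92, 8.74 and 8.12 in WT and 9.53, 9.41 and 9.18 in N1IC, a difference of 0.78 ± 0.22 (SE, log2) with an adjusted p of 0.0818. Its second probe set differed by 0.61. No proteoglycan-cutting ADAMTS was called, and Adamts5, an aggrecanase, lay between 4.81 and 4.98 on all arrays.

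**Figure D3:**
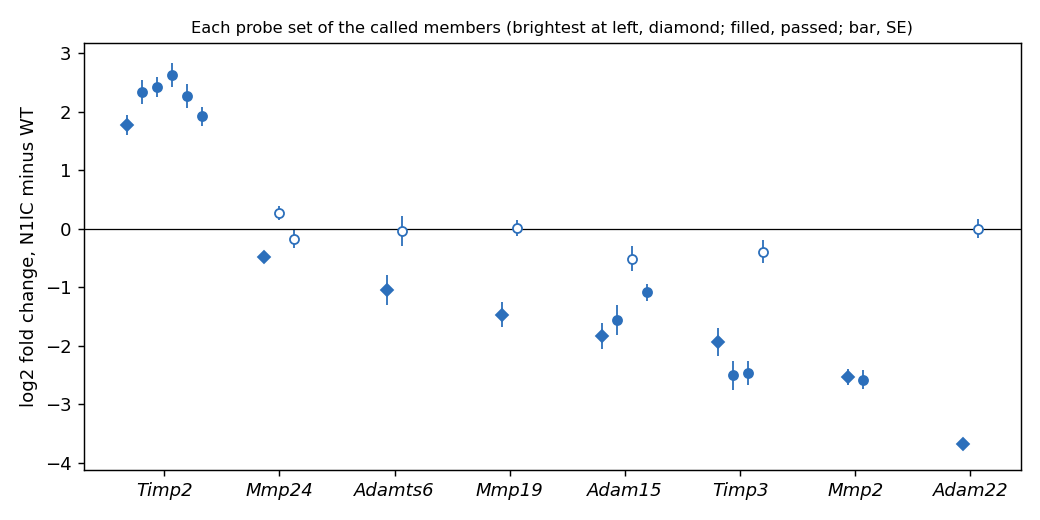
Difference between N1IC and WT (log2, vertical axis, with the standard error as a bar) for every probe set of the 8 called members that have more than 1. Diamonds mark the brightest probe set and filled symbols those that passed. The 6 Timp2 and both Mmp2 probe sets passed, whereas for Adam22, Mmp19, Adamts6 and Mmp24 only the brightest did.

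Some members varied widely within a group. An SD above 1 on the log2 scale was found in WT for Adam8, Adam19 and Adam23, and in N1IC for Adamts10 and Adamts20. Adam8, a sheddase of neutrophils and other myeloid cells, measured 6.79, 9.52 and 10.25 in WT and 7.43, 7.04 and 7.96 in N1IC. Adam23, an inactive ADAM related to Adam22, measured 5.98, 7.65 and 8.06 in WT and 6.40, 5.80 and 5.97 in N1IC. For both, WT replicate 1 was the low array, and neither passed the test, with adjusted p of 0.394 and 0.238 (limma, Benjamini-Hochberg). Adam19, which sheds neuregulin, measured 6.68, 8.29 and 8.74 in WT and 8.37, 9.06 and 7.99 in N1IC. Adamts10 measured 7.82, 7.86 and 8.30 in WT and 8.61, 6.79 and 8.93 in N1IC, with N1IC replicate 2 the low array. Adamts20, an aggrecanase-like enzyme, measured 3.51, 3.81 and 3.45 in WT and 5.88, 4.07 and 3.75 in N1IC, with N1IC replicate 1 the high array. None of these 3 was called, with adjusted p of 0.596, 0.928 and 0.331 (limma, Benjamini-Hochberg).

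WT replicate 1 also stood apart in the marker lists, and not only in those of mature myeloid cells. The summed intensity of 10 neutrophil and monocyte genes was 32090 on that array and 81740 and 78800 in WT replicates 2 and 3, against 25020, 31020 and 37330 in N1IC. That of 11 dendritic cell genes was 20550 on that array and 51000 and 50100 on the other WT arrays. The T-lineage sum was 3408 there and 6610 and 5840 in WT replicates 2 and 3. The mast cell, basophil and eosinophil sum was 4420 there against 29540 and 11030. This array had the lowest WT sum in every marker list except those of the LSK gate and endothelium. In these it had the highest, at 37930 and 6873. Without WT replicate 1, 11 members were lower in place of 7, while 7.81% of all genes were lower in place of 8.31%. Those gained were Adam8 at -2.41 (adjusted p 0.0159), Adam23 at -1.80 (0.0115), Adam12 at -1.64 (0.0164), Mmp11 at -1.26 (0.0372), Mmp23 at -0.60 (0.0495) and Adamts1 at -0.78 (0.00884), all by limma with Benjamini-Hochberg adjustment. For all 6 of these the lowest WT value was that of WT replicate 1. This follows largely from picking them by leaving that array out, so it adds no support. WT replicate 1 had the lowest WT value for 20 of the 62 members. Mmp24 (0.0573) and Adamts6 (0.1) were lost without this array. The part of the marker genes in these values was not tested.

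**Figure D4:**
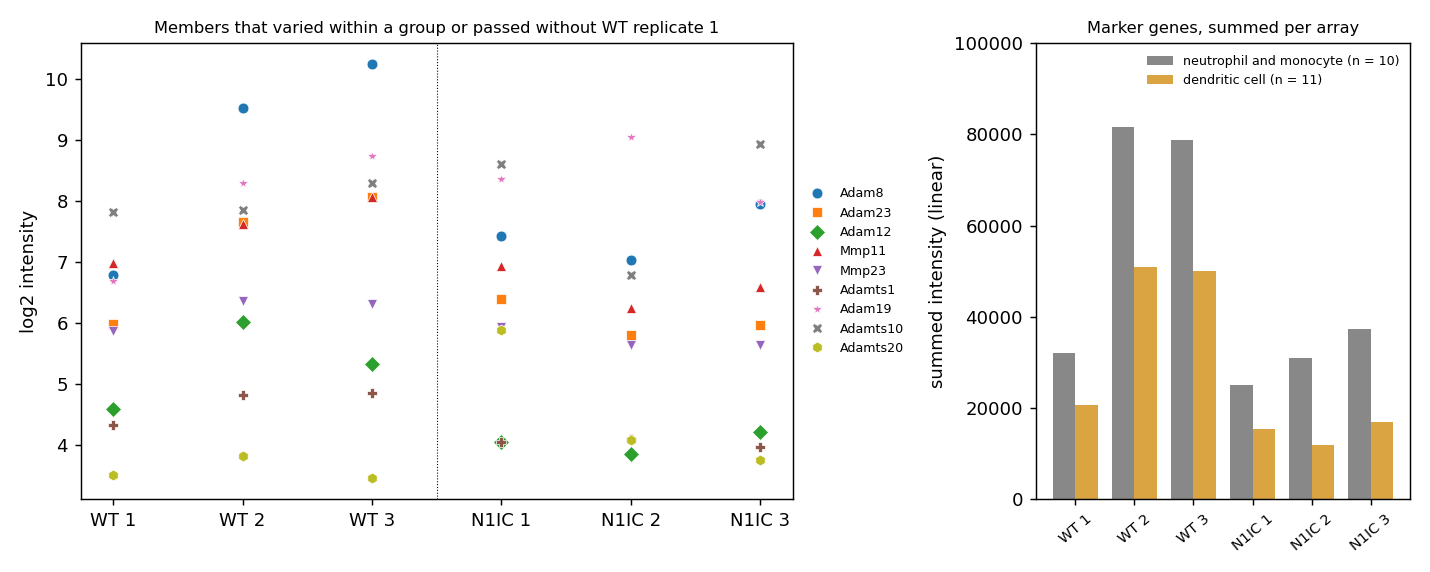
Left, log2 intensity of the members that varied within a group or that passed without WT replicate 1, on each of the 6 arrays. Right, summed linear intensity of 10 neutrophil and monocyte markers and of 11 dendritic cell markers per array, where WT replicate 1 (32090 and 20550) lies closer to the N1IC arrays than to WT replicates 2 and 3.

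Other genes of protease function were counted in the same fit, in which 3.47% of all genes were higher and 8.31% lower. Of 23 other inhibitors, activators and partners measured, 2 (8.7%) were lower and none higher: Reck, described above, and Tspan14, a tetraspanin that carries ADAM10 to the cell surface, at -0.64 with an adjusted p of 0.021 (limma, Benjamini-Hochberg). Of 12 astacin proteases and ADAMTS-like proteins 1 was lower, Adamtsl5 at -1.20. Of 27 known substrates 7 (25.9%) were lower and none higher, beside 8.31% and 3.47% of all genes, with a median difference of -0.11. These were Sdc1 at -3.91, Sdc4 at -3.38, Vwf at -3.11, Col4a1 at -2.73, Il6ra at -2.44, Thbs1 at -1.24 and Cd44 at -0.39, with adjusted p from 0.00127 to 0.046 (limma, Benjamini-Hochberg). Sdc1 and Sdc4 are cell-surface proteoglycans, Col4a1 is a basement membrane collagen cut by Mmp2, and Vwf and Thbs1 are proteins of platelets and endothelium. The sum over 9 megakaryocyte markers, Vwf among those listed, was 7530 to 11000 in WT and 1770 to 2600 in N1IC beside them.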

How the data were processed

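Expression was measured on single-colour mouse arrays, 3 WT and 3 N1IC. The authors deposited linear intensity values per probe set, normalised by RMA per the submitters' processing notes (version and probe definitions not given in the sources used here). RMA combines background correction, quantile normalisation and probe summary, so values have no true zero and dim genes are compressed. Of 45101 probe sets, 34945 had 1 gene symbol and 932 several. Of the former, 34741 matched the RefSeq gene table. Intensities were log2 transformed, and each of 18193 genes was represented by its brightest probe set by mean over all arrays. Groups were compared with the moderated linear model of limma 3.58.1 under R 4.3.3 (4 residual degrees of freedom, two-sided, Benjamini-Hochberg over all genes). The fit was also run on simulated arrays with independent noise of equal spread in both groups. That run lacked the overlap of sex and genotype, so it adds no support to the calls. Figures used matplotlib 3.10.9.

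The members, lists and rules were chosen with earlier results of these data known. Genes named were all called members, Adamdec1, the TIMP genes, in each role class the brightest and the uncalled member with the largest difference, members with an SD over 1, those nearest the threshold, and called genes of the context lists. Marker sums are of linear intensity. Other settings covered pairing, sex, normalisation, a filter on dim genes, probe sets, the eBayes prior, array weights and each array left out. Same-numbered WT and N1IC arrays correlated at -0.090, -0.069 and 0.070 in their deviations, so numbers were not treated as pairs. Protein sequences were not used here.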

Additional observations from a re-analysis of the deposited data

How the results depend on the processing

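Calls were recomputed in 18 other settings, of which centring on the median gene was chosen after seeing the data. Each count of higher members below includes Adamdec1, which was chosen with its rise known. Every called member kept its direction wherever it was tested. Adam22 and Mmp2 stayed called in all 18. The count of lower members was 4 with the replicate block (higher 3) and 3 with a covariate for sex (higher 2). The share of all genes called lower was 5.14% and 1.83% in these fits, below the 8.31% of the reported one. The share called higher was 1.96% and 0.638%, below 3.47%. With female mice alone, which left 1 WT array, all 9 called members kept their direction. The arrays of that fit were among those that picked these members, so the shared direction adds no support. With the block Mmp19 had an adjusted p of 0.0525 (limma, Benjamini-Hochberg). Centring on the median gene gave 12 higher members and 29.5% of all genes higher. Leaving out 1 array gave 5 to 11 lower members, with 4.59% to 7.81% of all genes lower. Among 17 members in the brighter 60% of genes, 2 were higher and 6 lower, beside 5.8% and 13.7% of all genes tested there. That filter used the mean over all 6 arrays, so a gene that was high in one group could pass through that group alone. Adamdec1 (3.95 in WT, 9.21 in N1IC) and Adam22 (9.20 in WT, 5.50 in N1IC) are such members. So are Mmp2 (8.47 in WT, 5.93 in N1IC), Timp3 (8.02 and 6.10) and Mmp19 (7.31 and 5.84). These counts are therefore a description and show no excess among the members. Mmp24 and Adamts6 were each lost in 10 settings. Some uncalled differences changed sign. In each of the fits on sex, Timp4 was 0.07 and Adam4 -0.03. Centring on the median gene gave 0.09 for Timp1, 0.25 for Timp4 and 0.02 for Adamts12. Those 3 changes follow from the centring, which adds the same amount to the difference of every gene. It moved the median over all genes from -0.01 to 0.31. Without 1 array, Adam19 ran from -0.04 to 0.99, Adam9 from -0.05 to 0.12, Timp4 from -0.19 to 0.05 and Adamts10 from -0.29 to 0.77. The cause of the changes without centring was not tested. Members at or near the lowest intensities have only a compressed difference.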
